A study of Mus musculus with 18 samples.

Results

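The interferon regulatory factors (IRFs) are a family of DNA-binding transcription factors, and 8 of their genes (Irf1, Irf2, Irf3, Irf4, Irf5, Irf7, Irf8 and Irf9) were followed in mouse melanomas. They were found by matching the Ensembl gene IDs of the count files to these symbols, which gave 8 of the 37620 gene IDs, and all 8 passed the filter on low counts. The tumours came from MO4 cells, B16F10 melanoma cells that express ovalbumin, which were given subcutaneously at 100000 cells per side to C57BL/6 mice, 1 tumour on each hind leg, at day 0. In the pMC group 1000000 iPSC-pMCs, cells made from induced pluripotent stem cells, were injected next to the right tumour on each of days 5, 6 and 7, in the IFN-alpha-pMC group IFN-α-iPSC-pMCs were injected in the same way, and control mice received none. Tumour RNA from the right (injected) and left (distant) side on day 11 gave 6 groups of 3 poly(A) RNA libraries, 18 in all. Every group carried the same tumour line in the same strain, and the labels call the right side the treated one in control mice too. The sources used here do not give the age or sex of the mice, the origin of the stem cell line or the construct behind the IFN-α name. Whether the 3 libraries of each group are from different mice is not stated in the labels, and every p-value therefore refers to the variation among these libraries alone, which may be technical.

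IRFs share an amino-terminal domain that binds GAAA-rich DNA, in sites known as interferon-stimulated response elements. IRF3, IRF5 and IRF7 act below nucleic acid sensors and switch on interferon genes, IRF9 is the DNA-binding part of ISGF3, the complex through which type I interferon receptors act on their targets, and IRF1 and IRF2 are an activator and its antagonist on overlapping sites. IRF4 and IRF8 are largely leukocyte factors that work with partners such as PU.1, in lymphocytes, macrophages and dendritic cells.

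The genes of IRF1, IRF2 and IRF8 carried letters of an interferon-related binding pattern just upstream of their start, and these stretches are shown because they hold a match. All 3 genes were higher in the injected tumours of IFN-alpha-pMC mice, and so were Irf4, Irf5 and Irf7, whose windows held no match. The RefSeq table on GRCm38.p6 held 11 promoter windows for the 8 genes, each from 250 bases before to 50 after a start. Searched on both strands, TTCNNNGAA (the gamma-activated site, which reads the same on either strand) occurred upstream in 7.02% of 32851 mouse windows. GAAA, any 2 bases and GAAA again, the core of an interferon-stimulated response element, occurred upstream in 2.98%, and both patterns in 0.332%. The lines give the 250 bases before 1 start of each gene, 5′ to 3′ on the gene's strand, for chr11:53769764-53770013 (Irf1), chr8:46739495-46739744 (Irf2) and chr8:120736108-120736357 (Irf8), all on the + strand, with matches in capitals.
Irf1: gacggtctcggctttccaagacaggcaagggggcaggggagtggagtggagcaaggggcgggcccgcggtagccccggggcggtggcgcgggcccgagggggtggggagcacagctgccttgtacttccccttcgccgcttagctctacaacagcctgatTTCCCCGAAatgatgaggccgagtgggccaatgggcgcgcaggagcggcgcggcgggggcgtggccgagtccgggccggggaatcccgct
Irf2: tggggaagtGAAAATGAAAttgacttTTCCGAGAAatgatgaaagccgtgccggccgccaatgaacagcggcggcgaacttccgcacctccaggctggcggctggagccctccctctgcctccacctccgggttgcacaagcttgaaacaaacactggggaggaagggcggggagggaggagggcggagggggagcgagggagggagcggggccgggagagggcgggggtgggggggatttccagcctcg
Irf8: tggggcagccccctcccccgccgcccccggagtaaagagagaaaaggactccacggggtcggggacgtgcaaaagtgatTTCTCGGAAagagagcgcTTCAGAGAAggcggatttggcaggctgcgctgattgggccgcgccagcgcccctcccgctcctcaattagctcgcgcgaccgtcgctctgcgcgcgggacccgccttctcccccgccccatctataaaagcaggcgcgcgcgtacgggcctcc
Irf1 held TTCCCCGAA from base -90, counted back from the start. Irf2 held both patterns without overlap, GAAAATGAAA from base -241 and TTCCGAGAA from base -224. Irf8 held TTCTCGGAA from base -171 and TTCAGAGAA from base -153. Neither pattern was found in the second window of Irf1 and of Irf8, nor in the windows of Irf3, Irf4, Irf5, Irf7 and Irf9, which says only that these letters are not in these windows. A match is a description of the sequence and not a measured binding site.

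Library totals ran from 14346091 to 23430259 counts, so that a count of 0 allowed up to 0.128 to 0.209 counts per 1000000 of the unscaled total. All levels in CPM are counts per 1000000 counts, with library sizes scaled by trimmed means. Summed melanocyte genes (Tyr, Dct, Pmel, Mlana, Tyrp1, Mitf, Sox10 and Slc45a2) stood at 29900 to 44700 CPM in all libraries. By edgeR, 0 of 8 were called in IFN-alpha-pMC against control on either side, where 10.8% (right) and 6.65% (left) of all genes were called. At an unadjusted p under 0.05 there were 0 on the right and 3 on the left, beside 3592 and 5365 of the 14849 genes tested. DESeq2 called 0 and 1 of them, beside 2065 and 2837 of all genes. A summed set of 6 leukocyte genes (Ptprc, Cd53, Laptm5, Coro1a, Lcp1 and Cd52) reached 917 to 1020 CPM on the injected side and 445 to 480 CPM on the distant side of IFN-alpha-pMC mice, above the 192 to 368 CPM of all other libraries. In bulk tissue, more cells of a type and more RNA per cell cannot be told apart. Summed skeletal muscle genes stood at 1700 to 3500 CPM (injected side) and 607 to 1150 CPM (distant side) in IFN-alpha-pMC mice. Controls had 24.1 to 940 and 7.32 to 302 CPM, and pMC mice 73 to 184 and 6.44 to 96.3 CPM. Against control, edgeR called 1 of 9 higher on the right and 2 of 9 on the left, beside 8.78% and 4.05% of all genes. DESeq2 called 2 (right) and 4 (left) against control, beside 2065 and 2837 of all genes. Against pMC it called 8 on each side, beside 1820 (right) and 1985 (left) of all genes. Library 1 of the distant IFN-alpha-pMC tumours and library 3 of both the injected IFN-alpha-pMC and the right control tumours were each the least correlated library of their own group (mean Spearman correlation of 0.9678, 0.9629 and 0.9454 with the rest of it), and these 3 were left out together as an alternative. Right control 2, at 0.9584, lay below all but right control 3 and was kept in it.

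On the injected side, 6 of the 8 IRF genes were higher in IFN-alpha-pMC than in control tumours, by 1.64-fold (Irf2) to 4.47-fold (Irf7). Irf7 and Irf5, which drive interferon and inflammatory genes, rose most, followed by the myeloid factor Irf8 and the lymphoid factor Irf4, and Irf1 rose 2.35-fold. Irf3 and Irf9 did not pass the test. Of the 14849 genes tested, 8.78% were called higher in this comparison at an adjusted p under 0.05 (edgeR quasi-likelihood test, Benjamini-Hochberg over all genes). The median log2 fold change was 1.41 over the 8 IRF genes and -0.03 over all genes. DESeq2 also called 6 of them, beside 2065 of all genes. Against pMC tumours of the same side, the same 6 genes were called higher, with 8.88% of all genes called higher, while pMC against control gave 0 of 8 (0 at an unadjusted p under 0.05, 0 by DESeq2, and 0% of all genes). In the distant tumour, 4 of 8 (Irf1, Irf5, Irf7 and Irf8) were higher in IFN-alpha-pMC than in control, where 4.05% of all genes were called higher.

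**Figure D1:**
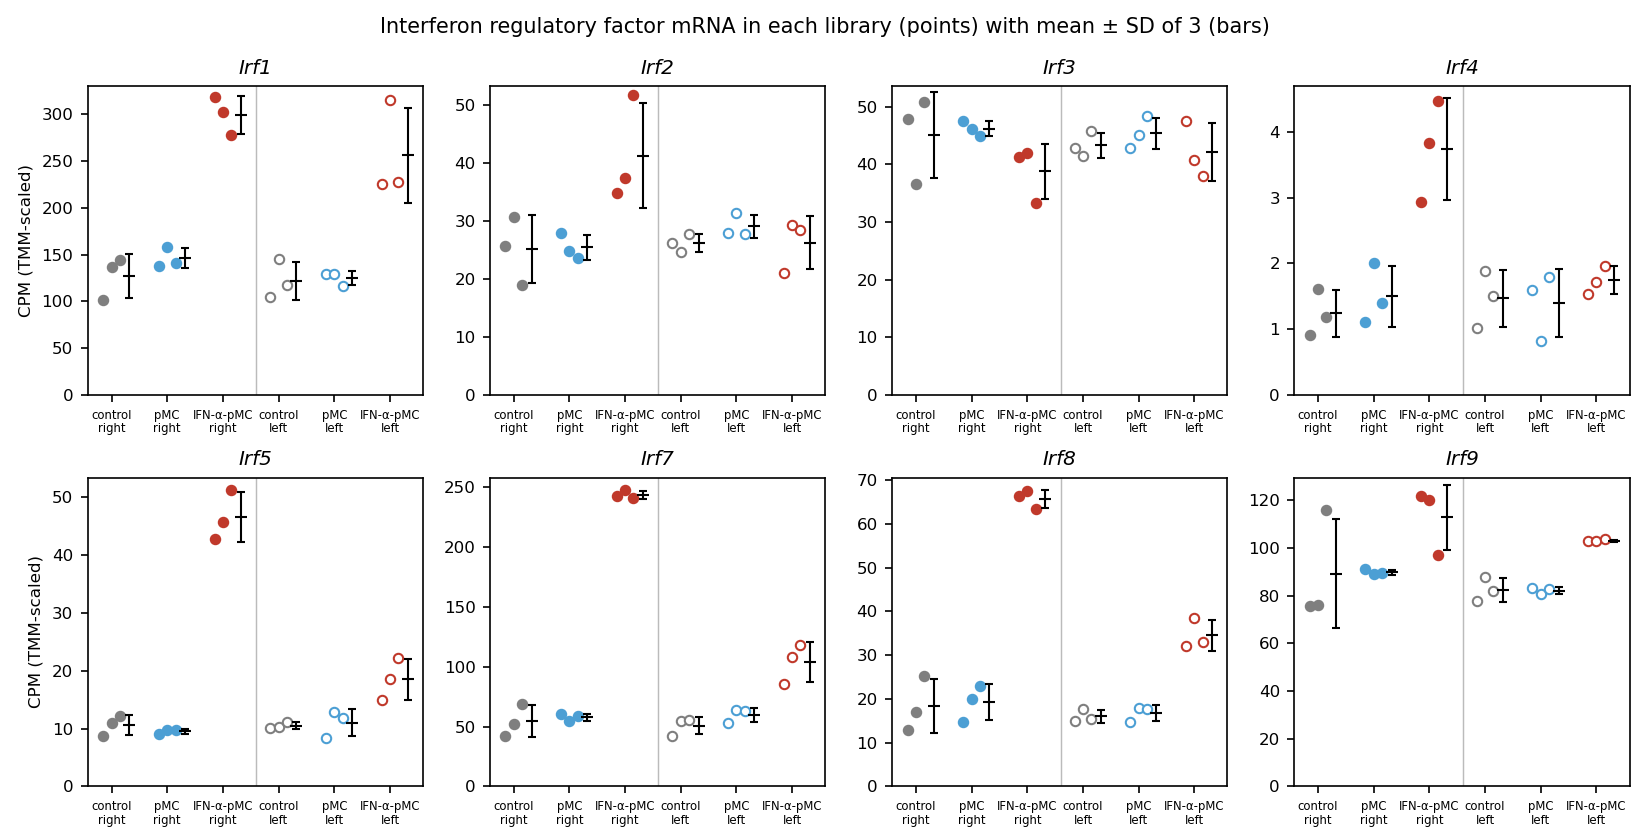
Level of each IRF gene in CPM (y axes from 0) in the 18 libraries, by treatment and side (filled points right, open points left), with mean ± SD of 3 beside them. The right IFN-alpha-pMC libraries of Irf5, Irf7 and Irf8 lie above every other library, Irf1 is high on both sides, and Irf3 overlaps between control and IFN-alpha-pMC.

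Irf7 (ENSMUSG00000025498), the factor whose induction amplifies interferon production, had 243, 248 and 241 CPM in right IFN-alpha-pMC libraries 1, 2 and 3. Right controls had 42.5, 52.2 and 69.1 CPM, and right pMC tumours had 60.4, 54.5 and 58.8 CPM. The IFN-alpha-pMC libraries were far above both other groups. Their SD was 3.31 CPM, the narrowest relative spread of the 8 genes in right IFN-alpha-pMC tumours (1.36% of the mean). The log2 fold change was 2.16 ± 0.18 (SE) against control (adjusted p = 2.8e-06) and 2.08 ± 0.18 against pMC (adjusted p = 4.35e-06). On the left, Irf7 was at 85.5, 108 and 118 CPM with IFN-alpha-pMC, against 42.3, 55 and 55.4 CPM in controls and 52.7, 63.6 and 62.8 CPM with pMC. These left libraries did not overlap with either group, and lay below all right IFN-alpha-pMC libraries. The left differences were 1.03 ± 0.18 from control (adjusted p = 0.0065) and 0.80 ± 0.18 from pMC (adjusted p = 0.0269). The first was not called without left control 1 (0.87, adjusted p = 0.0534). The second was lost when any of left pMC 1, 2 or 3 or left IFN-alpha-pMC 2 or 3 was left out (adjusted p of 0.0673 to 0.113).

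Irf5 (ENSMUSG00000029771), which acts below Toll-like receptors and MyD88 in macrophages, had 42.7, 45.6 and 51.2 CPM in right IFN-alpha-pMC tumours. It had 8.73, 11 and 12.1 CPM in right controls and 9.02, 9.74 and 9.74 CPM with pMC. The groups were separated by a wide gap, and the difference was 2.13 ± 0.18 from control (adjusted p = 3.05e-06) and 2.29 ± 0.19 from pMC (adjusted p = 3.02e-06). On the left, IFN-alpha-pMC tumours were at 15, 18.5 and 22.1 CPM, controls at 10.1, 10.2 and 11.2 CPM, and pMC tumours at 8.38, 12.9 and 11.9 CPM. The left IFN-alpha-pMC libraries were higher without overlap, by 0.82 ± 0.18 against control (adjusted p = 0.0216) and 0.75 ± 0.18 against pMC (adjusted p = 0.0346). The first call held only without left IFN-alpha-pMC 1, among single libraries left out (adjusted p of 0.0559 to 0.105 for the other 5), and the second likewise (0.0815 to 0.125 for the other 5). In GENCODE M21, 14.1% of the exon bases of Irf5 are shared with Tnpo3 on the opposite strand. The strand setting of the counting is not stated, so reads there may not have been told apart.

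Irf3 (ENSMUSG00000003184), the constitutive factor that starts the interferon response after phosphorylation, had 41.3, 41.9 and 33.3 CPM in right IFN-alpha-pMC tumours and 47.9, 36.6 and 50.8 CPM in right controls. These groups overlapped, and the difference of -0.22 ± 0.14 did not pass the test (adjusted p = 0.403). Against right pMC (47.5, 46.2 and 44.9 CPM) all 3 IFN-alpha-pMC libraries were lower, at -0.25 ± 0.14 (adjusted p = 0.377). On the left its group means lay between 42.1 and 45.4 CPM. Irf3 was not called in any of the 11 comparisons.

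Irf9 (ENSMUSG00000002325), the DNA-binding part of ISGF3, had 122, 120 and 97.2 CPM in right IFN-alpha-pMC tumours and 75.8, 76.1 and 116 CPM in right controls. Right control 3 stood near the IFN-alpha-pMC libraries and apart from the other two controls. The difference of 0.34 ± 0.15 was not called (adjusted p = 0.185, 0.0421 unadjusted), and it was called without right control 3 (0.57, adjusted p = 0.005). Without the 3 libraries named above it was 0.62 (adjusted p = 6.26e-05), in a fit that called 8175 of all genes instead of 1601. Over the 15 alternatives it ran from -0.28 to 0.62. On the left, IFN-alpha-pMC tumours were at 103, 103 and 104 CPM, controls at 77.9, 87.9 and 81.9 CPM and pMC tumours at 83.2, 80.6 and 82.7 CPM. The left IFN-alpha-pMC libraries were thus higher without overlap, but the size of 0.32 ± 0.15 against control did not pass the test over all genes (adjusted p = 0.142). It passed without those 3 libraries (0.31, adjusted p = 0.0129), where 4331 of all genes were called instead of 987. Against pMC, Irf9 was then called too, on the right (0.38, adjusted p = 0.00319, with 4287 of all genes called instead of 1497) and on the left (0.32, adjusted p = 0.0121, with 4142 instead of 572).

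Irf1 (ENSMUSG00000018899), an activator that interferon-gamma induces, had 318, 302 and 278 CPM in right IFN-alpha-pMC tumours, against 101, 137 and 144 CPM in right controls and 138, 158 and 141 CPM with pMC. All 3 were higher than every control and pMC library, by 1.23 ± 0.18 against control (adjusted p = 0.00015) and 1.04 ± 0.18 against pMC (adjusted p = 0.000719). On the left, IFN-alpha-pMC tumours were at 225, 315 and 228 CPM, controls at 105, 145 and 117 CPM, and pMC tumours at 129, 129 and 116 CPM. The left increase was 1.07 ± 0.18 over control (adjusted p = 0.00538) and 1.04 ± 0.18 over pMC (adjusted p = 0.00898). Its ranges on both sides of IFN-alpha-pMC mice overlapped. The left call against control held without each of the 6 libraries in turn, and that against pMC was lost without left pMC 3 (0.99, adjusted p = 0.0571) or left IFN-alpha-pMC 2 (0.86, adjusted p = 0.0577).

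Irf2 (ENSMUSG00000031627), the antagonist of IRF1 on shared sites, had 34.8, 37.4 and 51.7 CPM in right IFN-alpha-pMC tumours, against 25.8, 30.8 and 18.9 CPM in right controls and 27.9, 24.9 and 23.7 CPM with pMC. The right IFN-alpha-pMC libraries were higher without overlap, and library 3 of that group and of the controls lay furthest apart. The difference was 0.71 ± 0.19 from control (adjusted p = 0.0205) and 0.70 ± 0.19 from pMC (adjusted p = 0.0244). The call against control was lost without right control 1 (0.65, adjusted p = 0.124) or right IFN-alpha-pMC 3 (0.42, adjusted p = 0.138), and without the 3 libraries the difference was 0.30 (adjusted p = 0.0507). Against pMC it was lost without right pMC 2, right pMC 3 or right IFN-alpha-pMC 3 (adjusted p of 0.096 to 0.123). Both calls were also lost with a skeletal muscle score as a covariate (adjusted p = 0.118 and 0.157) and when only the groups compared were fitted (0.397 and 0.0603). On the left the groups overlapped, with means of 26.3 ± 4.56 CPM with IFN-alpha-pMC and 26.2 ± 1.6 CPM in controls (SD, n = 3).

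Irf8 (ENSMUSG00000041515), which sets the fate of monocytes and dendritic cells and is also a macrophage interferon-response factor, had 66.3, 67.4 and 63.3 CPM in right IFN-alpha-pMC tumours. Right controls had 12.9, 17.1 and 25.2 CPM and right pMC tumours 14.8, 19.9 and 23 CPM. The IFN-alpha-pMC libraries were higher without overlap, by 1.84 ± 0.21 against control (adjusted p = 2.58e-05) and 1.77 ± 0.21 against pMC (adjusted p = 3.74e-05). On the left, IFN-alpha-pMC tumours were at 32, 38.6 and 33 CPM, controls at 14.9, 17.7 and 15.5 CPM, and pMC tumours at 14.7, 17.9 and 17.8 CPM. The left libraries also did not overlap, with increases of 1.11 ± 0.21 (adjusted p = 0.0103) and 1.04 ± 0.21 (adjusted p = 0.0181). The left call against control was lost without left control 1 (1.02, adjusted p = 0.0656) or left control 3 (1.05, adjusted p = 0.068), and that against pMC without left pMC 1, 2 or 3 or left IFN-alpha-pMC 2 (adjusted p of 0.0663 to 0.0918).

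Irf4 (ENSMUSG00000021356), a factor of plasma cells, activated T cells and some dendritic cells, was the least abundant member. Its counts were 63, 64 and 113 in right IFN-alpha-pMC libraries, against 20, 37 and 19 in right controls and 20, 42 and 26 with pMC. In CPM these were 2.93, 3.83 and 4.46 against 0.914, 1.61 and 1.19 in controls, with no overlap, and 1.11, 2.01 and 1.39 with pMC. The increase was 1.59 ± 0.33 over control (adjusted p = 0.00411) and 1.31 ± 0.33 over pMC (adjusted p = 0.0154). The first call was lost when only the groups compared were fitted (1.53, adjusted p = 0.0668). The second was lost without right pMC 1, right pMC 3 or right IFN-alpha-pMC 3 (adjusted p of 0.0541 to 0.0848). On the left the groups overlapped, at 1.74 ± 0.213 CPM with IFN-alpha-pMC and 1.47 ± 0.433 CPM in controls (SD, n = 3).

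**Figure D2:**
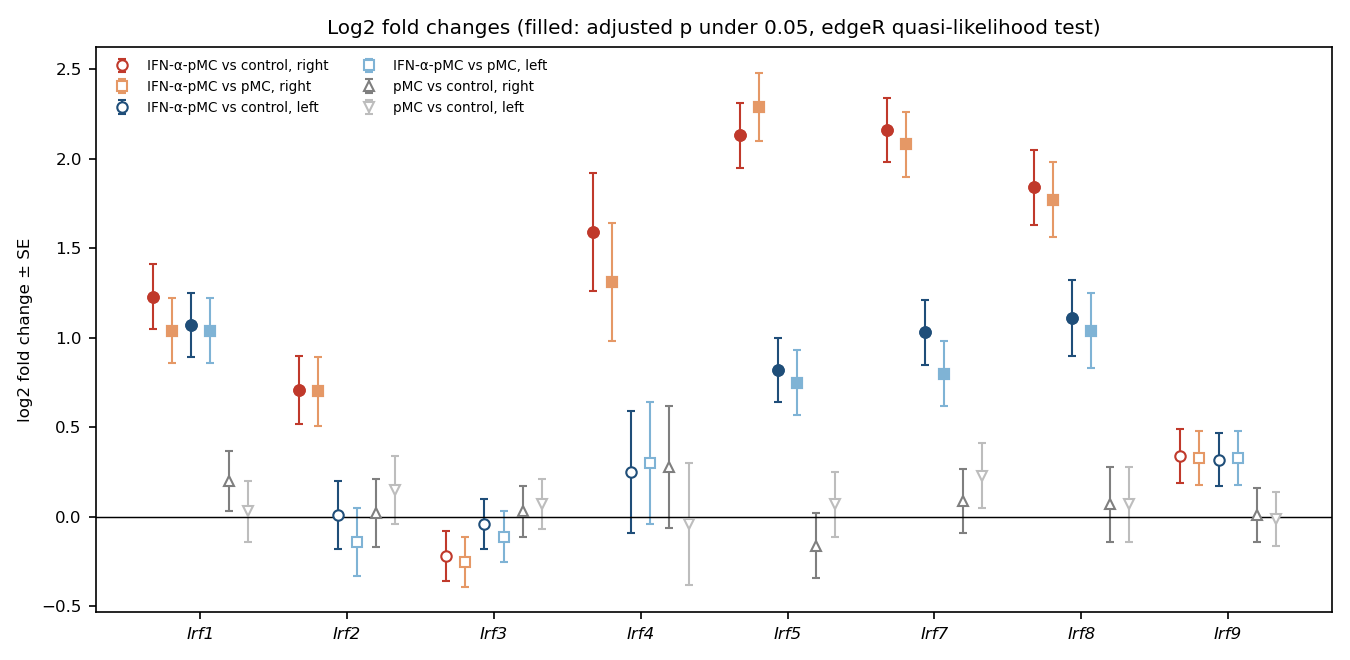
Log2 fold change ± SE of the 8 IRF genes in the 6 comparisons between treatments, with filled symbols at an adjusted p under 0.05. Against control, Irf7 stood at 2.16 on the right and 1.03 on the left and Irf1 at 1.23 and 1.07, while the pMC comparisons lay between -0.16 and 0.28.

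The plain pMC cells left the family near control levels on both sides. On the right the 8 differences between pMC and control ran from -0.16 (Irf5) to 0.28 (Irf4), and on the left from -0.04 (Irf4) to 0.23 (Irf7). None was called on either side, and 0% of all genes were called (on the left also 0 of 8 at an unadjusted p under 0.05 and 0 by DESeq2). Without the same 3 libraries (right control 3, left IFN-alpha-pMC 1, right IFN-alpha-pMC 3), Irf9 was called higher in right pMC than in right control tumours (0.24, adjusted p = 0.0393), in a fit that called 5067 of all genes. Against left pMC tumours, the left IFN-alpha-pMC tumours had 4 of 8 genes higher, the same ones as against control, where 2.71% of all genes were called higher. The comparisons with control and with pMC share their IFN-alpha-pMC libraries.

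Within IFN-alpha-pMC mice, the injected-side tumour had more Irf5, Irf7 and Irf8 RNA than the distant one. Irf5 was higher on the right by 1.33 ± 0.18 (adjusted p = 0.00102), Irf7 by 1.23 ± 0.18 (adjusted p = 0.00148) and Irf8 by 0.93 ± 0.20 (adjusted p = 0.0201), 3 of 8 members where 2.49% of all genes were called higher. The Irf8 call was lost when any library of the 2 groups except right IFN-alpha-pMC 1 was left out (adjusted p of 0.054 to 0.0913), and when only these groups were fitted (0.0511). Irf2 (0.65 ± 0.19, adjusted p = 0.0923) and Irf4 (1.10 ± 0.33, adjusted p = 0.106) were higher on the right without overlap but were not called. Irf1, at 0.22 ± 0.17 (adjusted p = 0.603), and Irf9, at 0.13 ± 0.15 (adjusted p = 0.76), overlapped between the sides. Right and left controls differed in 0 of 8 members, as did right and left pMC tumours (0 of 8 at an unadjusted p under 0.05, 0 by DESeq2 and 0% of all genes in each). In pMC mice the right libraries of Irf1 and Irf9 lay above the left ones, but neither difference was called (0.22 ± 0.17 and 0.13 ± 0.15, adjusted p = 0.95 for both). The share of all genes that separate in this way is not given here.

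Whether the effect itself differed between sides was tested as the right difference minus the left one. Relative to pMC, the effect was larger on the right for Irf5 by 1.54 ± 0.26 (adjusted p = 0.0228) and for Irf7 by 1.28 ± 0.25 (adjusted p = 0.0377), 2 of 8 members where 0.377% of all genes were called. Leaving out single libraries ended the Irf5 call for 8 of the 12 libraries in the 4 groups and the Irf7 call for 9 (adjusted p up to 0.087 and 0.134). Relative to control, 0 of 8 members and 0% of all genes were called by edgeR. At an unadjusted p under 0.05 there were 5 members, beside 918 of the 14849 genes tested. DESeq2 called Irf5 (1.30, adjusted p = 0.00166) and Irf7 (1.12, adjusted p = 0.00351), beside 86 of all genes. The edgeR values there were 1.31 ± 0.26 for Irf5 (adjusted p = 0.0752) and 1.13 ± 0.25 for Irf7 (adjusted p = 0.137). Without right control 3, Irf7 was called (1.34, adjusted p = 0.0403). For Irf1 the differences between sides were 0.16 ± 0.25 relative to control and 0.00 ± 0.24 relative to pMC.

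Per kilobase of exon, Irf1 was the most abundant member in all 6 groups, from 30.7 CPM per kb in left controls to 75.2 in right IFN-alpha-pMC tumours, and Irf4 the least abundant. The lengths join all exons of a gene in GENCODE M21 and not the transcripts expressed in these tumours. Orders and shares between genes are therefore approximate. In right controls Irf9 (16.6 CPM per kb), Irf7 (14.5) and Irf3 (13.1) followed Irf1 with ranges that overlapped between neighbours. Irf5 (3.66), Irf2 (3.41) and Irf8 (2.61) formed a lower set that also overlapped. In right IFN-alpha-pMC tumours the order changed to Irf1, Irf7 (64.7), Irf9 (21), Irf5 (16), Irf3 (11.3), Irf8 (9.31), Irf2 (5.58) and Irf4 (0.763 CPM per kb), with no overlap between neighbours. The 8 genes summed to 204 ± 6.77 CPM per kb there, against 86 ± 14.3 in right controls and 91.8 ± 1.95 with pMC (SD, n = 3). On the left the sum was 139 ± 15.3 with IFN-alpha-pMC, 81.8 ± 7.65 in controls and 86 ± 2.78 with pMC. Irf7 made up 31.7% ± 0.857 of the sum in right IFN-alpha-pMC tumours and 16.7% ± 1.34 in right controls. Irf1 kept a share of 36.9% ± 1.39 there against 37.2% ± 3.47 in right controls, and on the left held 46.2% ± 4.46 with IFN-alpha-pMC against 37.3% ± 3.04 in controls.

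**Figure D3:**
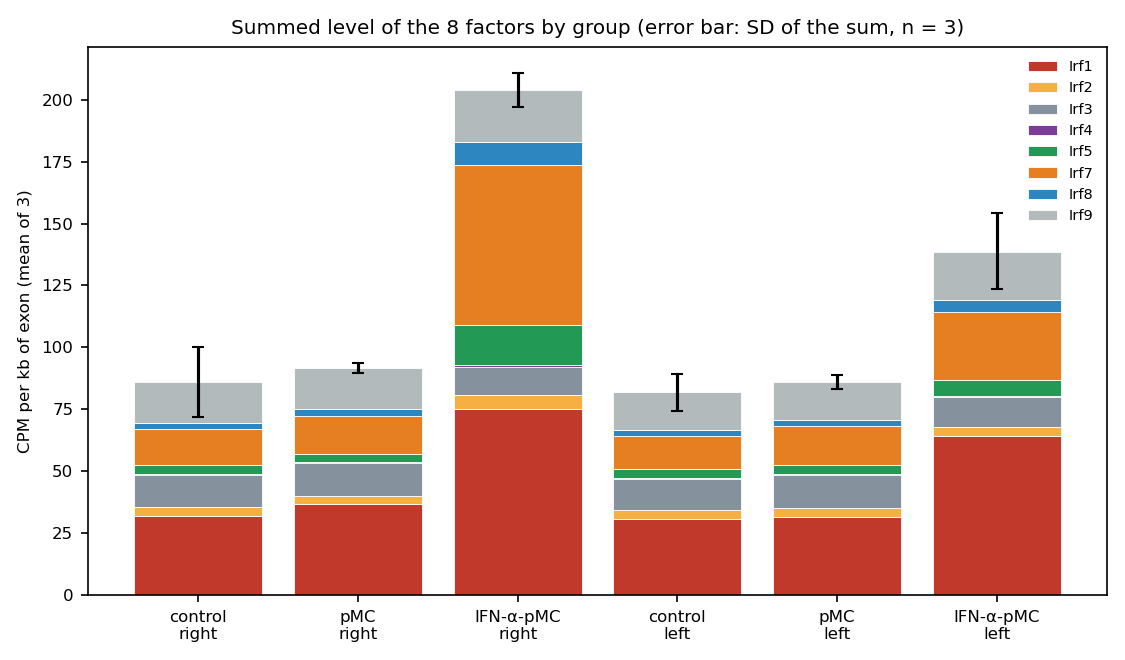
Mean level of each IRF gene in CPM per kb of exon, stacked by group, with the SD of the summed level as error bar (n = 3). The sum reaches 204 CPM per kb (injected side) and 139 (distant side) in IFN-alpha-pMC mice and lies between 81.8 and 91.8 in the other groups.

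Irf8 moved with the summed leukocyte genes, Irf7 nearly did, and Irf1, Irf2, Irf3 and Irf9 did not keep a fixed ratio to them. Per 1000 CPM of the 6 leukocyte genes, Irf8 had group means of 59.8 to 73.7 CPM in all 6 groups, although its own level spanned 12.9 to 67.4 CPM. The group means of Irf7 ran from 195 to 248 CPM. Irf7 per 1000 leukocyte CPM was 248 ± 15 in right IFN-alpha-pMC and 195 ± 22.7 in right controls, with no overlap, but right pMC tumours, at 208 ± 47.5, overlapped with the former. Irf5 was 47.1 ± 2.82 in right IFN-alpha-pMC and 38.6 ± 6.29 in right controls, with overlap. Irf1 went the other way on the right, at 305 ± 38.2 against 460 ± 66.1, and overlapped on the left, at 546 ± 98.7 against 474 ± 77.5. Irf2 was at 41.7 ± 7.76 against 96.8 ± 42 on the right and 56.3 ± 10.9 against 103 ± 15.5 on the left. Irf4 was at 3.78 ± 0.59 against 4.49 ± 1.15 on the right, with overlap. Irf3 stood at 39.6 ± 6.31 against 171 ± 68.4 and Irf9 at 115 ± 18.8 against 322 ± 68 on the right. All these ratios are descriptions with no test (SD, n = 3). All 6 leukocyte genes were called higher on the right and 3 of 6 on the left, as were 8 and 6 of 8 T cell genes, 5 and 4 of 5 NK cell genes and 6 and 3 of 9 monocyte and macrophage genes. Of the dendritic cell lists, 0 and 2 of 5 XCR1+ conventional, 0 and 0 of 5 other conventional, 1 and 0 of 4 activated and 1 and 0 of 5 plasmacytoid genes were called higher. Beside all these cell type counts, 8.78% (right) and 4.05% (left) of all genes were called higher. The activated dendritic cell genes summed to 37 to 55.2 CPM in right IFN-alpha-pMC and 33 to 67.6 CPM in right control tumours, and to 32.1 to 44.1 against 52.5 to 65.5 CPM on the left. These sums mostly follow 1 gene, Fscn1. It held 14520 counts over all 18 libraries, against 1754 for Cacnb3, 564 for Ccr7 and 452 for Ccl22. None of these lists had a gene at 0 counts in all libraries of a group. With a leukocyte score of each library as a covariate, 0 of 8 IRF genes were called in any comparison. On the right in IFN-alpha-pMC against control, Irf7 then stood at 1.35 (adjusted p = 0.273), Irf5 at 1.44 (0.277), Irf1 at 0.60 (0.409) and Irf8 at 0.34 (0.539). Over the 15 alternatives the adjusted p of Irf7 ran from 6.73e-31 to 0.273, and that of Irf8 from 4.85e-15 to 0.539. The score was 1.41 to 1.59 (injected side) and 0.33 to 0.49 (distant side) in IFN-alpha-pMC mice and -1.07 to 0.06 in all others, so treatment and leukocyte content cannot be told apart.

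**Figure D4:**
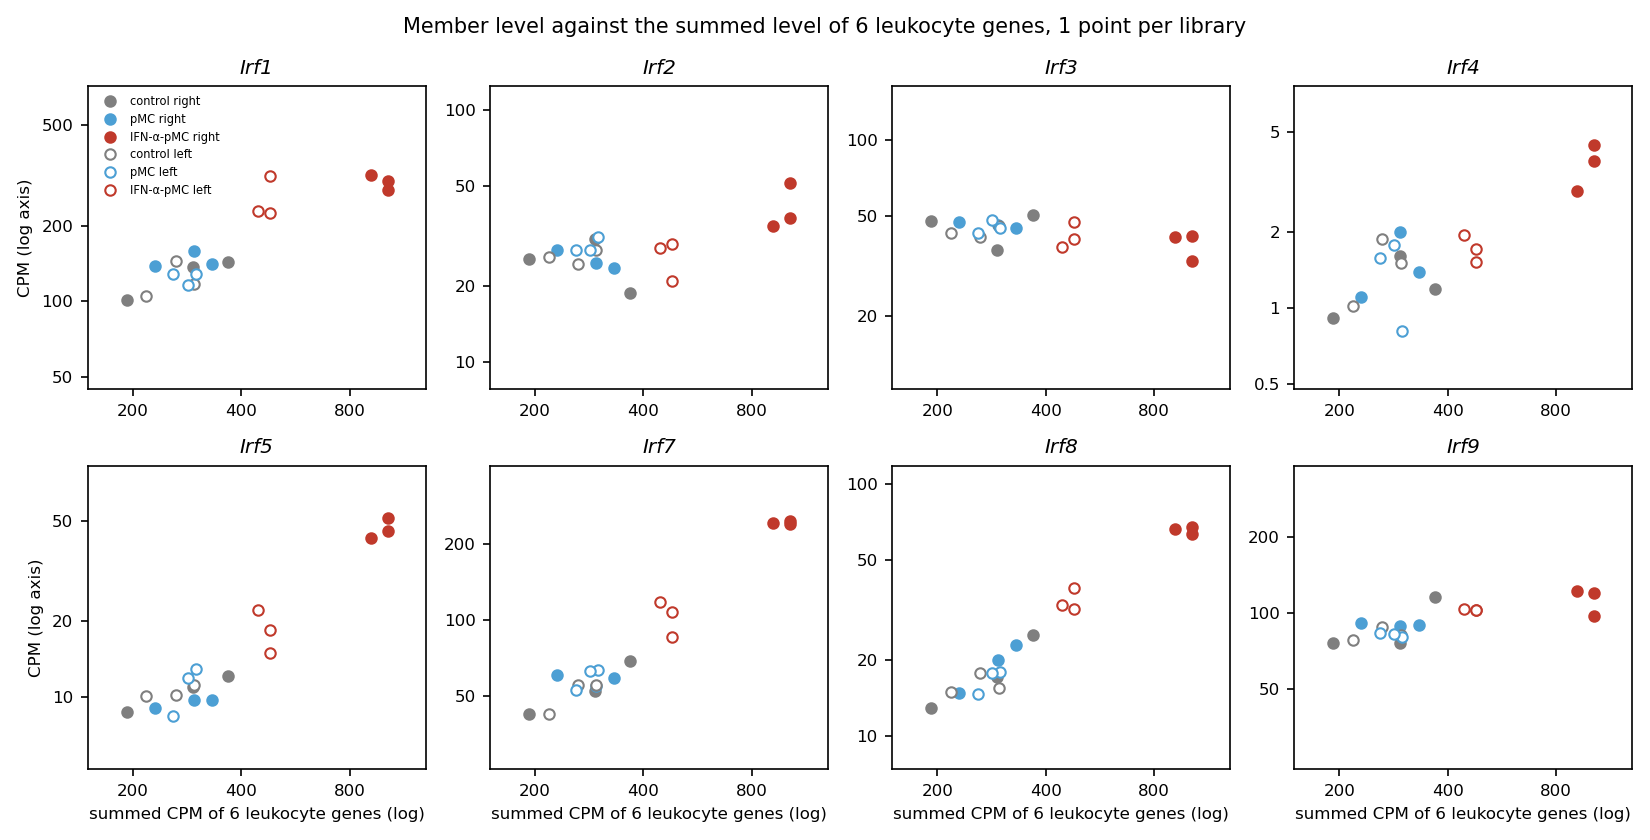
Level of each IRF gene (y, CPM, log axis) against the summed level of 6 leukocyte genes (x, CPM, log axis), 1 point per library (filled right, open left). Irf8 rises along with the leukocyte sum through all 18 libraries, and Irf3 stays between 33.3 and 50.8 CPM while the sum runs from 192 to 1020 CPM.

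Genes with the most similar pattern over the 18 libraries were sought for the 6 members called in any comparison between treatments, by the root mean square difference of centred log2 CPM among 12797 genes. Irf1 was closest to Gbp3 (0.11), Cmpk2 (0.11) and Ifit3 (0.12), against a median of 0.63 over all genes. Irf2 was closest to Daxx (0.11), Elf1 (0.12) and Wipf1 (0.12), with a median of 0.44. The nearest genes of Irf5 were Sash3 (0.15), C3ar1 and Icam1 (both 0.16), and those of Irf7 included Tlr13 and Fxyd5 (both 0.16), each with a median of 0.88. Irf8 was closest to Fcer1g (0.15), Clec4a3 and Pirb (both 0.16), with a median of 0.82. Irf4 had looser neighbours, Arhgap4 (0.26), Prkch (0.28) and Ly9 (0.29), with a median of 0.68. Among the members themselves, the closest pairs were Irf5 with Irf7 (0.16) and Irf7 with Irf8 (0.20). The libraries share their groups, so these values describe patterns and are not tests.

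Beside each of the lists below, 8.78% of all genes were called higher in right IFN-alpha-pMC than in right control tumours, and 4.05% on the left. Upstream of the IRFs, 3 of 17 sensors, adaptors and kinases were higher in that right comparison and 0 were lower, with a list median of 0.21 against -0.03 over all genes. They were Myd88, the adaptor of most Toll-like receptors (20.4 ± 1.52 to 42.5 ± 3.7 CPM, 1.06 ± 0.13, adjusted p = 4.45e-05), the RNA receptor Tlr7 (8.75 ± 2.89 to 23.2 ± 3.03 CPM, 1.41 ± 0.24, adjusted p = 0.000612), and Ifih1, which encodes the cytosolic RNA sensor MDA5 (82.2 ± 13.5 to 138 ± 8.79 CPM, 0.74 ± 0.18, adjusted p = 0.0134). The Ifih1 call was lost without right control 1 (0.55, adjusted p = 0.135). On the left, edgeR called 2 of 17 higher and DESeq2 called 7 (2837 of all genes). The 2 were Myd88 (0.50 ± 0.13, adjusted p = 0.0387) and, named after its values were seen, the DNA sensor Cgas (0.50 ± 0.13, adjusted p = 0.0418), for which single libraries were not left out. The left Myd88 call was lost without left control 1, 2 or 3 or left IFN-alpha-pMC 2 or 3 (adjusted p of 0.0636 to 0.134). Of the 20 type I and III interferon genes listed, 10 were found in the files and none had enough counts to be tested. Ifnb1, interferon beta, had 17 counts over all 18 libraries, Ifna16 had 2, Ifne had 1 and the other 7 had 0.

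Among 9 interferon receptors, JAK kinases and STATs, 4 were higher on the right (median 0.44) and 0 on the left, where edgeR gave 3 at an unadjusted p under 0.05 (5365 of the 14849 genes tested) and DESeq2 called 2 (2837 of all genes). Ifngr1, a chain of the interferon-gamma receptor, rose from 27.9 ± 6.99 to 59.5 ± 8.78 CPM (1.10 ± 0.18, adjusted p = 0.000439). Ifnar2, a chain of the type I receptor, rose from 26.2 ± 1.2 to 38.8 ± 1.83 CPM (0.57 ± 0.14, adjusted p = 0.0117). Stat2, the ISGF3 subunit, rose from 80.5 ± 21.3 to 135 ± 28.5 CPM (0.74 ± 0.19, adjusted p = 0.0178). Without right control 1, Ifnar2 (adjusted p = 0.11) and Stat2 (0.143) were no longer called, nor was Stat2 without right IFN-alpha-pMC 3 (0.118).

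Of 9 factors that work with or oppose IRF4 and IRF8, 6 were higher on the right, with a list median of 1.27, and 2 on the left, with a median of 0.77 against 0.07 over all genes. Spi1, which encodes PU.1, rose from 15.2 ± 2.54 to 50.2 ± 1.95 CPM (1.72 ± 0.16, adjusted p = 6.22e-06), and Ikzf1, which encodes the lymphoid factor Ikaros, from 6.95 ± 2.13 to 29.3 ± 7.62 CPM (2.08 ± 0.25, adjusted p = 4.57e-05). Batf2, an interferon-induced leucine zipper factor, rose from 22.9 ± 3.36 to 54.6 ± 4.61 CPM (1.25 ± 0.19, adjusted p = 0.000321). On the left the 2 called were Spi1 (0.77 ± 0.16, adjusted p = 0.0178) and Batf2 (0.67 ± 0.19, adjusted p = 0.0489). The left Spi1 call was lost without left control 1, 2 or 3 or left IFN-alpha-pMC 2 (adjusted p of 0.0571 to 0.106). The left Batf2 call was lost without any of the 6 libraries except left IFN-alpha-pMC 1 (0.0768 to 0.163), with relative log expression scaling (0.0514) and with no filter on low counts (0.0578).

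Of 7 IRF corepressors and turnover factors, only the ubiquitin ligase gene Trim21 was higher on the right (44.4 ± 9.67 to 70.5 ± 7.21 CPM, 0.67 ± 0.16, adjusted p = 0.0123), and it was not called without right control 1 or 2 or right IFN-alpha-pMC 1 (adjusted p of 0.058 to 0.113). The corepressor genes Irf2bp1 (-0.45 ± 0.24, adjusted p = 0.267) and Irf2bp2 (-0.41 ± 0.24, adjusted p = 0.339) were not called there. Both were called lower without right IFN-alpha-pMC 3 (-0.74, adjusted p = 0.0493, and -0.82, adjusted p = 0.0282), and Irf2bp1 also without right control 3 (-0.65, adjusted p = 0.0434). On the left, 1 was higher and 1 lower, where 4.05% of all genes were called higher and 2.6% lower. Irf2bp2 fell from 66 ± 9.59 to 34.5 ± 5.36 CPM (-0.93 ± 0.25, adjusted p = 0.0408), without overlap, and Trim21 stood at 0.58 ± 0.16 (adjusted p = 0.0455). Each library left out in turn ended the left Irf2bp2 call (adjusted p of 0.0502 to 0.143) and the left Trim21 call (0.0565 to 0.159).

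Downstream, targets of ISGF3 and of IRF1 were higher on both sides. Of 18 ISGF3 targets, 16 were called higher on the right (median 1.30) and 13 on the left (median 0.79). Over all genes the shares called higher were 8.78% and 4.05%. Mx1, an antiviral GTPase, rose from 6.32 ± 0.923 to 24.2 ± 3.36 CPM on the right (1.93 ± 0.21, adjusted p = 1.86e-05) and stood at 1.15 ± 0.21 on the left (adjusted p = 0.00927), where the call was lost without left control 1 (0.0643) or left control 3 (0.0534). The exonuclease gene Isg20 rose by 2.12 ± 0.24 on the right (adjusted p = 2.18e-05) and 1.67 ± 0.24 on the left (adjusted p = 0.00265). Oas3, an oligoadenylate synthetase, rose by 1.97 ± 0.27 on the right (adjusted p = 0.000104) and was at 0.89 ± 0.27 on the left (adjusted p = 0.0522). Of 14 IRF1-dependent interferon-gamma targets, 11 were called higher on each side, with medians of 1.54 and 1.29. Cxcl10, the chemokine that draws CXCR3-bearing T cells, rose from 137 ± 26.9 to 499 ± 57.7 CPM on the right and from 125 ± 14 to 345 ± 123 CPM on the left (1.87 ± 0.24 and 1.46 ± 0.24, adjusted p = 7.17e-05 and 0.00538). Il18bp, the secreted inhibitor of interleukin 18, rose by 2.01 ± 0.21 and 0.95 ± 0.20 (adjusted p = 1.22e-05 and 0.0189), and its left call was lost without left control 1, 2 or 3 or left IFN-alpha-pMC 2 (0.073 to 0.115). Nos2, the inducible nitric oxide synthase, rose by 2.82 ± 0.36 on the right (adjusted p = 7.03e-05) and was at 1.13 ± 0.36 on the left (adjusted p = 0.0606). The summed leukocyte and muscle genes were higher in the same tumours. With the leukocyte score as a covariate, 0 of all genes were called against control on either side.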

How the data were processed

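The deposited files hold whole-number counts for each Ensembl gene ID, with no normalization. Named in the submitters' processing notes are build mm9 and HTSeq 0.10.0, HISAT2 2.1.0, Trimmomatic 0.36, DESeq2 1.20.0, CASAVA 1.8.2, FastQC and bcl2fastq. No source used here gives the annotation release or the strand setting. Rows that name no gene were left out (60.2 to 70.7% of the counted total was assigned to genes). Reads that matched no gene made up 4.04 to 6.12% in IFN-alpha-pMC libraries and 6.87 to 12.21% in all others, without overlap. This difference runs with the treatment, and its cause was not tested. Symbols and exon lengths came from GENCODE M21 (GRCm38), and 32897 IDs had a symbol. The 18 libraries were tested in 1 model of 6 groups with edgeR 4.0.16 (quasi-likelihood F test, two-sided, trimmed-mean scaling, filterByExpr, 14849 genes, 12 residual degrees of freedom) in R 4.3.3, with Benjamini-Hochberg adjustment over all genes and a threshold of 0.05. The SE was the log2 fold change divided by the square root of F. The leukocyte score is the mean log2 CPM of 6 genes, centred over the libraries. Simulated data gave back 39 of 100 genes changed by 1 and 94 of 100 changed by 2 on the log2 scale (IFN-alpha-pMC versus control, right, 14586 genes). Floors cover counting error only. Named were all 8 members, the 3 genes of each pathway list with the smallest adjusted p in IFN-alpha-pMC against control on the right, and the 3 genes most like each called member. Some genes that this rule or a list count includes are not reported here by name. The members and lists were chosen with earlier results of these data known. Alternatives were DESeq2 1.42.0, other scalings, no filter, only the groups compared, libraries left out, a replicate block and 2 score covariates.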

Additional observations from a re-analysis of the deposited data

Results flagged for a closer look

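For 2 genes the effect of IFN-alpha-pMC relative to pMC differed between the injected and the distant side by a test of the difference itself. The right effect exceeded the left one by 1.54 ± 0.26 (log2, adjusted p = 0.0228) for Irf5 and by 1.28 ± 0.25 (adjusted p = 0.0377) for Irf7 (edgeR quasi-likelihood test). Relative to control the same differences of Irf5 and Irf7 were not called by edgeR.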

How the results depend on the processing

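The counts below are IRF genes called of 8. With the leukocyte score as a covariate, 0 were called in every comparison, down from 6 for IFN-alpha-pMC against control and against pMC on the right, 4 in each on the left, 3 for right against left in IFN-alpha-pMC mice and 2 for the difference between sides relative to pMC. With the muscle score as a covariate, 2 (control) and 1 (pMC) were called on the left, and 5 in each on the right, without Irf2. Fitting only the groups compared ended 4 calls, of Irf2 and Irf4 on the right against control, Irf2 against pMC and Irf8 between sides. Without right control 3, left IFN-alpha-pMC 1 and right IFN-alpha-pMC 3, 1 was called for pMC against control on the right and 3 for the difference between sides relative to control. For that difference DESeq2, with all libraries, called 2 (86 of all genes). Leaving out 1 library at a time gave 1 to 4 on the left against control, 0 to 4 against pMC, 0 to 1 for the difference between sides relative to control and 0 to 2 relative to pMC. In these fits fewer libraries and residual degrees of freedom remained, and a group of 2 is assumed to vary like the others. Same-numbered right and left libraries of a treatment correlated at -0.19 to 0.62 in their deviations (median 0.12), and 5 of 9 pairs were over 0.1. Right and left libraries of a treatment with different numbers ran from -0.53 to 0.33 (median -0.08), with 4 of 18 over 0.1. The labels do not say which libraries share a mouse, and these values do not settle it. The numbers were therefore not taken as pairs in the main fit. In comparisons between treatments, the replicate block joined equal numbers across treatments within a side. In comparisons across sides, it joined the same-numbered right and left libraries of a treatment. The replicate block left 2 called on the left against pMC (Irf1 and Irf8) and cost Irf2 its calls on the right (adjusted p = 0.0692 against control and 0.0768 against pMC). Over all genes it moved the calls from 987 to 208 on the left against control, 572 to 88 on the left against pMC, 58 to 133 for the difference between sides relative to pMC and 0 to 20 relative to control. Besides Irf5 and Irf7 on the left against pMC, it changed no other IRF call. Across the alternatives, the genes called on the right against control (1601) ran from 0 with the leukocyte score to 8175 without the 3 libraries. On the right against control, Tlr7 and Trim21, which were called, turned sign with the leukocyte score (-0.09 and -0.06), as did Irf2bp1 (1.12), Irf2bp2 (0.30) and Irf9 (-0.28), which were not. Relative log expression or upper-quartile scaling and no filter on low counts changed 0 IRF calls. Irf4, with 13 to 113 counts per library, is the member that depth limits most. The cause of these changes was not tested.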
